A study of Mus musculus with 14 samples.

Results

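Mouse embryonic fibroblasts, connective tissue cells grown from mouse embryos, were compared after 12 h without amino acids and after 12 h without glucose. The comparison covered 4 of the series' 14 total RNA libraries, 2 from each starvation, chosen by their labels and not by any measured value. Of 40800 genes in the count table, 17696 passed a filter on low counts and were tested. For both groups the cells were washed in phosphate-buffered saline and kept in DMEM, a standard culture medium, that lacked either amino acids or glucose and held 10% dialyzed serum, from which small nutrients have been removed. Both groups were then detached with trypsin and frozen in dialyzed serum with dimethyl sulfoxide. The control at 0 h was untreated, had no medium change and was frozen in ordinary serum, and both starvations were also sampled at 3 and 6 h. The starvations at 12 h thus shared their handling, whereas any value given against the control also spans a difference in medium change and freezing serum. No mouse strain or embryo age is labelled. Nor is it stated that the libraries of a pair came from separate cultures, so p-values measure the spread between these libraries, which may be technical.

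The series asks how cells respond to the loss of nutrients and how autophagy, the digestion of cell contents in lysosomes, takes part. As background, uncharged tRNA in cells without amino acids activates the kinase GCN2, which phosphorylates the translation factor eIF2, slows protein synthesis and raises translation of the transcription factor ATF4. The loss of amino acids also silences mTORC1, a kinase complex on lysosomes that drives growth and restrains autophagy. Without glucose, less sugar reaches the N-glycans that help proteins fold in the endoplasmic reticulum (ER). Misfolded proteins there set off the unfolded protein response through the sensors IRE1, PERK and ATF6, of which PERK also acts through eIF2 and ATF4. Low energy activates the kinase AMPK, and the sugar sensor MondoA leaves the promoter of its target Txnip. The starvations are thus known to share ATF4 and autophagy, with different ER, sugar and amino acid signals around them.

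With 1 transcript standing for each gene, the 4 libraries held 38448202 to 54990640 reads, within the 35270758 to 55349652 of all 14. Levels below are CPM, read counts scaled to a common library size with TMM factors. Log2 CPM of the 2 libraries correlated across genes at 0.992 in amino acid starvation and 0.991 in glucose starvation, a description of genes and not of replicates. On the first principal component of all libraries, which held 37.3% of the variance, the amino acid-starved libraries lay at 94.8 and 95.1 and the glucose-starved libraries at -12.4 and -13.9. The 100 genes with the most reads took 16.1 and 16.4% of the reads in amino acid starvation and 21.7 and 22.0% in glucose starvation. Reads on Rn18s-rs5, a ribosomal RNA gene, stood at 656 and 574 CPM in amino acid starvation and at 2524 and 2738 CPM in glucose starvation. The part of this ribosomal RNA difference in the results below was not tested. Of 11 fibroblast markers 8 were tested, and their summed level was 607 and 583 CPM in amino acid starvation, 3765 and 3894 CPM in glucose starvation, and 6651 and 6028 CPM in the control. Vim, described below, made up most of the gap between the starvations, while Thy1, Fap and Lum were too low to test. No epithelial marker of 7 was high enough to test, and macrophage markers summed to 17.6 to 22.0 CPM in all 4 libraries. Neural markers, led by Nes, summed to 137 to 144 CPM in the 4 libraries, and in bulk RNA fewer cells of a type and less RNA per cell cannot be told apart.

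The starvations produced widely different transcriptomes at 12 h. Of the genes tested, 11341 (64.1%) differed at a Benjamini-Hochberg adjusted p under 0.05 by edgeR's quasi-likelihood test, 5757 (32.5%) higher in amino acid starvation and 5584 (31.6%) lower. A gene that passed is called below, and a positive log2 fold change means a higher level in amino acid starvation. Called genes that differed at least 2-fold numbered 2161 (12.2%) higher and 2003 (11.3%) lower. The median log2 fold change of all tested genes was 0.03 with TMM scaling and 0.27 when libraries were scaled by their total reads. Of all calls, 50.8% were higher with TMM and 65.5% with library totals, so the split between directions depends on the scaling, and a small positive or negative median below should be read against that shift. Longer transcripts leaned towards amino acid starvation: from the shortest to the longest quintile of genes, with median lengths of 668 and 6095 bases, the median log2 fold change went from -0.16 to 0.25. Exons of 6195 tested genes (35.0%) overlap those of another annotated gene, and whether counting used strand is not given in the sources used here, so reads of overlapping genes cannot be told apart.

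**Figure D1:**
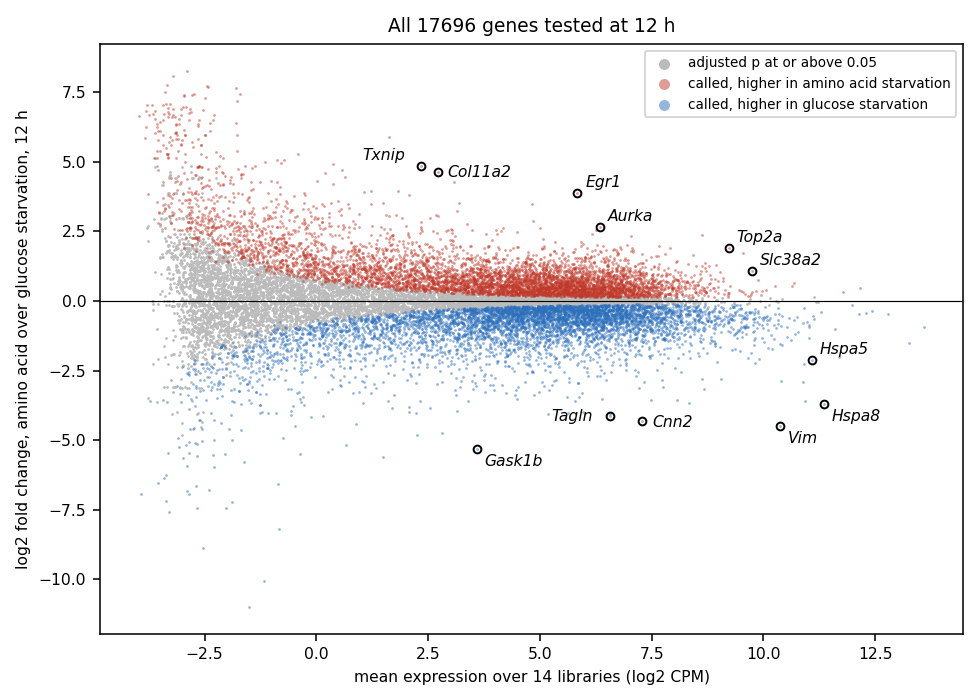
Log2 fold change between amino acid and glucose starvation at 12 h against mean log2 CPM over 14 libraries, 1 point per tested gene (17696), red where called higher and blue where called lower in amino acid starvation. Calls lie in both directions across the range of expression, and Vim, Hspa8 and Hspa5 stand out among genes with many reads that were lower in amino acid starvation.

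Called genes were ranked if their mean log2 CPM reached 3 and the libraries of the starvations did not overlap, leaving out provisional symbols such as Rik clones. The highest in amino acid starvation was Egr1, an early growth response transcription factor, followed by Apobr, Mast1, Depdc1a, Bbs1 and Aurka. The lowest were Gask1b, Vim, Cnn2, Tagln, Hspb1 and Ass1, and after them Grem1, Cdh3, Hspa8, Pdia6, Dap and Actg1. Vim encodes vimentin, the intermediate filament protein of fibroblasts. It stood at 101 and 97.9 CPM in the amino acid-starved libraries, at 2173 and 2255 CPM in the glucose-starved libraries and at 2359.8 and 2132 CPM in the control (log2 fold change -4.48, edgeR adjusted p = 1.4e-28, SE 0.06). The glucose-starved libraries lay at the control's level and the amino acid-starved libraries 22.3-fold below them. Ass1, argininosuccinate synthase of arginine synthesis, had a log2 fold change of -4.04 (SE 0.07), and Gask1b, a Golgi-associated protein, one of -5.30 (SE 0.14). Grem1, a secreted antagonist of bone morphogenetic proteins, had -3.97 (SE 0.07), and the cadherin gene Cdh3 -3.95 (SE 0.14). In the other direction, Depdc1a had 2.86 (SE 0.09), Cdkn3, a cell cycle phosphatase, 2.56 (SE 0.14), and Bbs1, a subunit of a ciliary coat complex, 2.77 (SE 0.10). The exons of Apobr, with 3.48 (SE 0.08), overlap those of the lysosomal gene Cln3, which had 3.07 (SE 0.12), so these values are not independent.

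The 43 gene lists described below, some of which share members, ran from a median log2 fold change of -1.60 for ER chaperones to 1.37 for mitosis. Lists lower in amino acid starvation by their medians outnumbered those higher, and the lowest 4 were ER chaperones, cholesterol synthesis, the actin cytoskeleton and collagens. Counts of called members are to be read against the 32.5% higher and 31.6% lower of all genes.

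**Figure D2:**
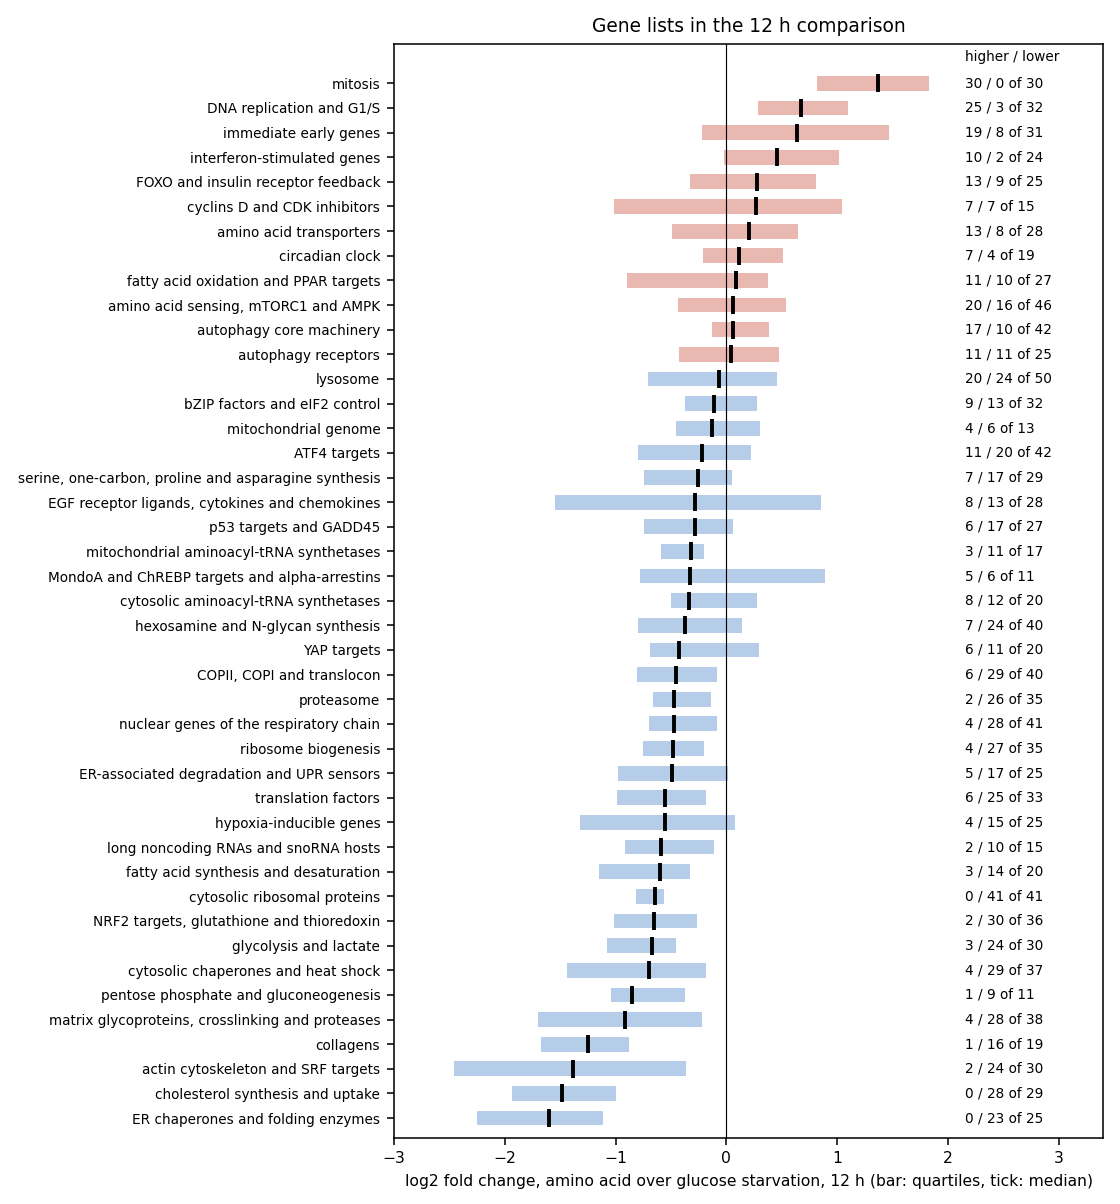
Median (tick) and quartiles (bar) of the log2 fold change between amino acid and glucose starvation at 12 h for 43 gene lists, with the numbers of called members higher and lower in amino acid starvation at the right. Mitosis (30 of 30 higher) and ER chaperones (23 of 25 lower) are at the opposite ends.

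The protein-folding machinery of the ER had the lowest median of all lists. Chaperones and folding enzymes of the ER bind new secretory proteins, form their disulfide bonds and trim their glycans, and most are induced by the unfolded protein response. Of 25 tested members, none was called higher in amino acid starvation and 23 were lower, with a median log2 fold change of -1.60 (-1.63 after correction for transcript length and GC content). Hspa5, or BiP, the main ER chaperone and the usual readout of this response, stood at 1041 and 1108 CPM in amino acid starvation, 4614 and 4649 CPM in glucose starvation and 1413 and 1424 CPM in the control (log2 fold change -2.11, edgeR adjusted p = 2.4e-23, SE 0.05). The glucose-starved libraries were above the control and the amino acid-starved libraries below it. The same order held for Hsp90b1, the ER member of the HSP90 family, with 651 and 696 CPM against 5068 and 4989.8 CPM and a control of 1741 and 1869.5 CPM (log2 fold change -2.90, SE 0.06). Pdia6, a disulfide isomerase, stood at 69.2 and 75.6 CPM against 901 and 923 CPM, with 398 and 406 CPM in the control (log2 fold change -3.66, SE 0.06). It was thus 12.6-fold apart between the starvations, and its exons overlap those of Atp6v1c2. Exons of Hsp90b1, Pdia4, Manf and Sil1 overlap other annotated genes as well. Pdia4 with -3.54, Sdf2l1 with -3.27, Creld2 with -2.56, Manf with -2.47 and the calcium-binding lectin chaperone Calr with -2.25 were lower as well. Not called were the oxidase Ero1a at -0.10 (SE 0.06), which stood at 352 and 382 CPM against 399 and 387 CPM over a control of 60.3 and 69.6 CPM, and the exchange factor Sil1 at -0.19 (SE 0.10). Against the control, with which both starvations share the same 2 libraries, the list's median was -0.67 in amino acid starvation, with 4 members higher and 18 lower, and 1.18 in glucose starvation, with 24 higher and 0 lower. For comparison, 66.9% of all genes were called against the control in amino acid starvation and 58.4% in glucose starvation. Of the 17696 tested genes, 6169 were higher and 5670 lower in amino acid starvation, and 5387 higher and 4952 lower in glucose starvation.

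The ER stress element, the sequence CCAAT followed after 9 bases by CCACG, is bound by NF-Y and ATF6 and marks promoters of this response. It was found on either strand, from 250 bases before to 50 after the start, in 8 of the 22 ER chaperone genes with a RefSeq promoter window (36.4%), against 0.137% of all 27025 genes with a window. The 8 genes with a match had a median log2 fold change of -2.18 and a range of -3.66 to -1.20, and the 14 without one a median of -1.27 and a range of -3.54 to -0.10. A match is a description of the letters and not of binding. Parts of 4 promoters, picked from the 8 genes with a match, are shown. They do not stand for the whole list, since genes without a match reached -3.54. Each is 5′ to 3′ on the gene's own strand with both pieces of the element in capitals, from RefSeq on build GRCm38.p6 (Hspa5 chr2:34771970-34772089, plus strand, Hsp90b1 chr10:86705520-86705669, minus strand, Pdia6 chr12:17266440-17266559, plus strand, and Creld2 chr15:88819469-88819588, plus strand).
Hspa5: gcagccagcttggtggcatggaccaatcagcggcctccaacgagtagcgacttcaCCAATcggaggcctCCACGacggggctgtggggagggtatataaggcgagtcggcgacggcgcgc
Hsp90b1: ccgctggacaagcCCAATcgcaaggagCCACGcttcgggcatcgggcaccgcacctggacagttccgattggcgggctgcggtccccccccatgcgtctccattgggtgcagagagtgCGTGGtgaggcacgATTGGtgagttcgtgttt
Pdia6: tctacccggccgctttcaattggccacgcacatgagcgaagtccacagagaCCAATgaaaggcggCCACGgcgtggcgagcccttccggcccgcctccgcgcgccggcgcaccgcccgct
Creld2: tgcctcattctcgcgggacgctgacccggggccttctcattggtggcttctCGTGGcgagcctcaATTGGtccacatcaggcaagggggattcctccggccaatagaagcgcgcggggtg
Hspa5, Hsp90b1 and Pdia6, and the element of Creld2 on the other strand, thus show the same pieces at different distances from the start, and Hsp90b1 holds 2 elements on opposite strands.

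Around folding, ER-associated degradation removes misfolded proteins, and vesicle coats and the translocon move proteins in and out of the ER. Of 25 tested members of the list of degradation and sensors, 5 were higher and 17 lower, with a median of -0.49. Xbp1, whose mRNA is spliced by IRE1 into that of an active factor, stood at 20.3 and 24.6 CPM against 83.1 and 85.3 CPM, with 64.3 and 66.5 CPM in the control (log2 fold change -1.91, edgeR adjusted p = 2.1e-19, SE 0.07). Its spliced and unspliced forms were not told apart. Ern1, which encodes IRE1, went the other way, at 199 and 183 CPM against 75.2 and 70.2 CPM (log2 fold change 1.39, SE 0.07). The highest log2 fold change of this list was that of Derl3, with 2.98. Herpud1, the ubiquitin ligase gene Syvn1 and its partner Sel1l were lower in amino acid starvation, with -1.89, -1.88 and -1.37. The conjugating enzyme gene Ube2g2 was higher, with 1.48, but its exons overlap those of another gene, as do those of Syvn1. Of 40 coat and translocon genes, 6 were higher and 29 lower, with a median of -0.46, led by the translocon subunit genes Sec61b (-1.88) and Sec61g (-1.42) and the COPII coat gene Sec31a (-1.37). Of 40 genes of hexosamine and N-glycan synthesis, 7 were higher and 24 lower. The lower genes included Alg5 (-1.85), Ddost (-1.31) and Gfpt1, the entry enzyme of the hexosamine pathway (-1.09). Ogt and Oga, which add and remove O-GlcNAc on nuclear and cytosolic proteins, were higher, with 0.92 (SE 0.06) and 1.36 (SE 0.05).

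ATF4 targets stood above the control in both starvations and differed between them gene by gene. Every one of the 42 tested targets, Atf4 included, was called higher than the control in both starvations. Of all 17696 tested genes, 6169 were called higher in amino acid starvation and 5387 in glucose starvation. The list's median log2 fold changes were 2.18 and 2.28, which rest on the same 2 control libraries. The list was chosen with earlier results of these data known. Between the starvations, 11 targets were higher and 20 lower in amino acid starvation, with a median of -0.22 that turned to 0.02 with library totals. Atf4 itself stood at 852 and 888 CPM in amino acid starvation, 909 and 947 CPM in glucose starvation and 304 and 314 CPM in the control. Its difference between the starvations was -0.09 (SE 0.05) and was not called. Of 32 bZIP factors and regulators of eIF2, a list that shares Atf4 and others with the targets, 9 were higher and 13 lower. Psat1 with 0.00 (SE 0.05), Mthfd2 with 0.04 (SE 0.05), Sesn2 with 0.08 (SE 0.06) and Chac1 with -0.12 (SE 0.06) were among the ATF4 targets that were not called.

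The targets that were higher in amino acid starvation were led by Atf5, a transcription factor whose exons overlap those of Il4i1 and Nup62. It stood at 519.9 and 499 CPM against 144 and 146 CPM, over a control of 33.4 and 31.0 CPM (log2 fold change 1.81, edgeR adjusted p = 3.9e-21, SE 0.06). The cystine transporter gene Slc7a11 stood at 90.9 and 96.5 CPM against 39.8 and 34.4 CPM, with 8.72 and 6.42 CPM in the control (log2 fold change 1.33, SE 0.08). Slc38a2, the inducible carrier of small neutral amino acids, stood at 1229 and 1249.7 CPM against 596 and 578 CPM, with 438 and 442 CPM in the control (log2 fold change 1.08, SE 0.05). All 3 were above the control in all 4 libraries and above it furthest in amino acid starvation. Cebpg, a partner of ATF4, had 1.25 (SE 0.06), Trib3, a pseudokinase that restrains ATF4, 0.39 (SE 0.06), and Asns, asparagine synthetase, 0.27 (SE 0.05). Cebpg also overlaps another annotated gene.

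The targets that were lower in amino acid starvation included genes that the unfolded protein response also drives. Ddit3, or CHOP, a transcription factor of terminal ER stress, stood at 104 and 99.9 CPM against 317 and 334 CPM over a control of 15.8 and 12.7 CPM (log2 fold change -1.68, edgeR adjusted p = 9.2e-18, SE 0.07), and its exons overlap those of Mars, the methionyl-tRNA synthetase gene. Herpud1 stood at 206 and 207 CPM against 762 and 773 CPM over 76.4 and 73.8 CPM, and Atf3, a stress-induced repressor, at 43.0 and 46.3 CPM against 131 and 133 CPM over 8.46 and 7.84 CPM. All 3 were above the control in all 4 libraries, furthest in glucose starvation. Fgf21, a stress hormone, was low in all libraries, with 0.854 and 0.529 CPM against 1.71 and 1.81 CPM (log2 fold change -1.35, SE 0.31). Slc6a9, a glycine transporter gene with overlapping exons, had -1.35 (SE 0.06) and Ddit4, an inhibitor of mTORC1, -1.22 (SE 0.07).

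**Figure D3:**
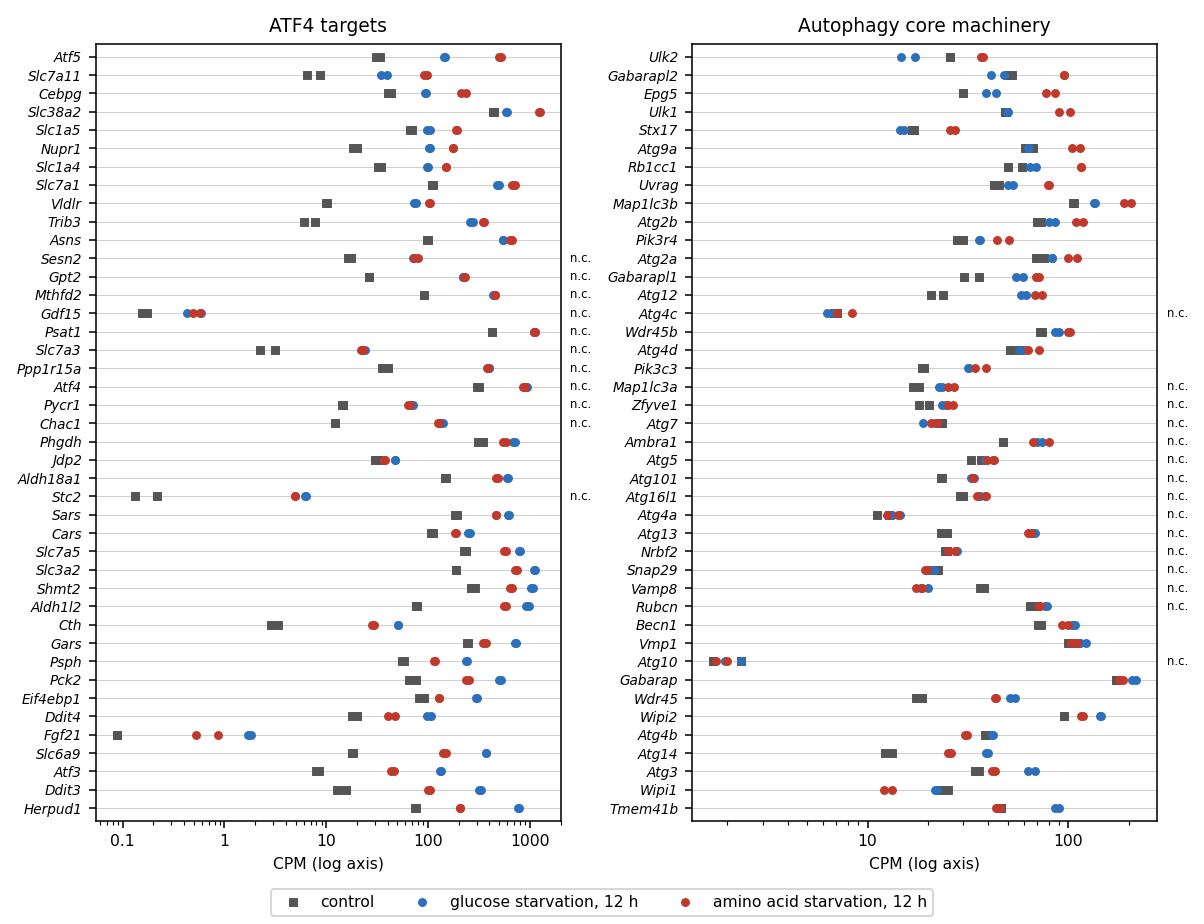
CPM on a log axis of each ATF4 target (left) and core autophagy gene (right), 2 points per group for control (grey), glucose starvation at 12 h (blue) and amino acid starvation at 12 h (red), sorted by log2 fold change between the starvations; n.c. marks genes not called and values of 0 are not drawn. Both starvations lie right of the control for ATF4 targets, red furthest at the top (Atf5) and blue furthest at the bottom (Herpud1).

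The C/EBP-ATF response element, TGATGNAA, is the site that ATF4 binds with a C/EBP partner. It was found in 14 of the 35 ATF4 targets with a promoter window (40.0%) and in 4.51% of all genes with a window. Targets with a match had a median log2 fold change between the starvations of -0.11 and those without one -0.09. A promoter from each direction is shown, Slc7a11 (higher in amino acid starvation, chr3:50443614-50443733, minus strand) and Herpud1 (lower, chr8:94386261-94386380, plus strand), from RefSeq on GRCm38.p6, with matches on either strand in capitals.
Slc7a11: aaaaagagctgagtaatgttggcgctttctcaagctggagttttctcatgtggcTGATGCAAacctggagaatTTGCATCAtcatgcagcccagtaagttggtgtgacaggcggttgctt
Herpud1: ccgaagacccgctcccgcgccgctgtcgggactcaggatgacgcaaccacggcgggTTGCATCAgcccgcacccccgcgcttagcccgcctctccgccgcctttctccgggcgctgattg
Both carry the element, 2 copies in Slc7a11 and 1 in Herpud1, although their levels differed in opposite directions.

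Genes that use, carry or make amino acids were split. Aminoacyl-tRNA synthetases charge tRNA with amino acids, and all 20 cytosolic members were called, 8 higher and 12 lower in amino acid starvation. Iars stood at 970.4 and 933 CPM against 541 and 533 CPM (log2 fold change 0.83, SE 0.05), and Aars, whose exons overlap those of Exosc6, had 0.73 (SE 0.05). In contrast, Kars stood at 110.2 and 108 CPM against 345 and 354 CPM (log2 fold change -1.68, SE 0.05), with 313 and 307 CPM in the control, and Wars and Gars had -1.04 and -1.01. Of the 17 mitochondrial synthetases 3 were higher and 11 lower. Of 28 amino acid transporters, 13 were higher and 8 lower, with a median of 0.21. Slc1a5, a glutamine exchanger, had 0.91 (SE 0.05), and Slc15a4, a lysosomal histidine and peptide carrier, 1.37 (SE 0.08), whereas Slc3a2 and Slc7a5, which together import leucine, had -0.60 (SE 0.05) and -0.47 (SE 0.05). In serine, one-carbon, proline and asparagine synthesis, 7 of 29 tested genes were higher and 17 lower. Glutamate dehydrogenase Glud1, the branched-chain transaminase Bcat1 and the phosphatase Psph of serine synthesis were lower, with -1.54 (SE 0.05), -1.19 (SE 0.05) and -1.04 (SE 0.05). Exons of Slc15a4, Bcat1 and Psph overlap other annotated genes.

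Cytosolic chaperones were largely lower in amino acid starvation as well. These proteins, many of them induced by the heat shock factor HSF1, fold new proteins in the cytosol, and HSPA8 also guides substrates to lysosomes in chaperone-mediated autophagy. Of 37 tested members, 4 were higher and 29 lower, with a median of -0.70. Hspa8 stood at 476 and 481 CPM in amino acid starvation, 6194 and 6188 CPM in glucose starvation and 3904 and 3802 CPM in the control (log2 fold change -3.69, edgeR adjusted p = 2.5e-28, SE 0.06). Hspb1, a small heat shock protein gene, stood at 3.42 and 4.17 CPM against 61.7 and 64.5 CPM, with 67.4 and 62.1 CPM in the control (log2 fold change -4.05, SE 0.18). For both genes the amino acid-starved libraries were far below every other one of these 6. Hspa1b and Hspa1a are near-identical copies whose reads may be split between them, and had -3.37 and -3.31. Hsp90ab1, the constitutive cytosolic HSP90, had -2.01 (SE 0.05), and Cct2, a subunit of the ring chaperone that folds actin and tubulin, -1.65 (SE 0.05). Mitochondrial Hspa9 was not called (0.00, SE 0.05), and the heat shock factor Hsf2 was higher (1.07, SE 0.07).

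A heat shock element, GAANNTTC, was found in 13 of 30 of these genes with a window (43.3%) and in 9.04% of all genes with a window. Hspa8 had no window and was not searched. Members with a match had a median log2 fold change of -1.28, from -4.05 to -0.01, and the 17 without one a median of -0.62, from -1.50 to 1.07. This element, too, was chosen after seeing the data. Hspb1 (chr5:135887756-135887875, plus strand), with 2 matches, and Dnaja1 (chr4:40722288-40722407, plus strand), with 1, are shown from RefSeq on GRCm38.p6 because one was far and the other slightly lower in amino acid starvation. Dnaja1 had -0.39 (SE 0.06), with exons that overlap those of Smu1.
Hspb1: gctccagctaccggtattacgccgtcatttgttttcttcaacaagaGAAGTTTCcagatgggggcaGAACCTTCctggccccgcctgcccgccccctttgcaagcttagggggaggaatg
Dnaja1: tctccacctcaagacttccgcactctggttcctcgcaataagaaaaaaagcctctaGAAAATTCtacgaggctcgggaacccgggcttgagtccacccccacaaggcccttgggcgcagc
The capitals mark matches to the pattern GAANNTTC, which as a pattern reads the same on both strands.

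The actin cytoskeleton and the matrix that fibroblasts secrete were lower in amino acid starvation. SRF, with its actin-regulated partners MRTFA and MRTFB, drives the genes of actin filaments and the contractile apparatus. Of 30 tested members of that list, 2 were higher and 24 lower, with a median of -1.39. Actg1, cytoplasmic gamma-actin, stood at 196 and 191 CPM against 2259 and 2358 CPM, with 3154 and 2843 CPM in the control (log2 fold change -3.58, edgeR adjusted p = 2.8e-27, SE 0.06), and the calponin gene Cnn2 at 14.8 and 15.7 CPM against 289.7 and 311 CPM, with 352 and 339.9 CPM in the control. Tagln, or SM22, stood at 9.56 and 10.1 CPM against 167 and 174 CPM, with 99.1 and 91.8 CPM in the control, and its exons overlap those of Pcsk7. The starvations lay 11.9-fold apart for Actg1, 19.7-fold for Cnn2 and 17.4-fold for Tagln, all 3 named by the ranking that required no overlap between groups. Vim belongs to this list too, and Tagln2, Tpm1 and Pfn1 had -2.55, -2.20 and -2.04. The 2 higher genes were regulators, Srf itself with 0.65 (SE 0.08) and Mrtfb with 0.78 (SE 0.07), while the integrin gene Itgb1 was not called (-0.03, SE 0.06).

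Collagen genes were lower in 16 of 19 tested members and higher in 1, with a median of -1.24. Col1a1, a chain of the main fibrillar collagen, stood at 322 and 301 CPM against 989.6 and 1032 CPM, with 2485 and 2219 CPM in the control (log2 fold change -1.70, SE 0.06), and its partner Col1a2 at 53.8 and 52.9 CPM against 373 and 373 CPM, with 1192 and 1118 CPM in the control (log2 fold change -2.80, SE 0.06). Both starvations were below the control for these 2 genes, amino acid starvation furthest. The exception was Col11a2, which stood at 34.3 and 31.9 CPM against 1.24 and 1.43 CPM, with 2.38 and 2.82 CPM in the control (log2 fold change 4.64, edgeR adjusted p = 1.6e-22, SE 0.13). Among 38 matrix glycoproteins, crosslinking enzymes and proteases, 4 were higher and 28 lower, among them the crosslinker Lox (-2.69), Timp3 (-2.22) and Sparc (-1.86). Fibronectin, Fn1, was not called (0.13, SE 0.06). Of 20 targets, partners and regulators of YAP, which is active in spread cells, 6 were higher and 11 lower. Ccn2 had -1.91 (SE 0.06) and Tead4 -2.25 (SE 0.09), against Lats2, an inhibitor of YAP, with 0.996 (SE 0.06). Exons of Actg1, Mrtfb, Lox, Fn1, Ccn2 and Lats2 overlap other annotated genes, mostly provisional ones.

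The CArG box, CC and GG around 6 bases that are each A or T, is the site of SRF. It was found in 6 of 26 actin and SRF genes with a window (23.1%), in 4 of 24 immediate early genes (16.7%) and in 1.81% of all genes with a window. Tagln and Egr1 had no window, so they were not searched and are left out of these shares and medians. Members of the actin list with a match had a median log2 fold change of -1.92, from -4.30 to 1.14, and the 20 without one a median of -1.39. Immediate early genes with a match had a median of 0.64 and the 20 without one 0.33, and Srf counts in both lists. The box was chosen for this search after seeing the data. Cnn2 (chr10:79988480-79988599, plus strand) and Actg1 (chr11:120348521-120348640, minus strand) are shown from RefSeq on GRCm38.p6, with the box in capitals.
Cnn2: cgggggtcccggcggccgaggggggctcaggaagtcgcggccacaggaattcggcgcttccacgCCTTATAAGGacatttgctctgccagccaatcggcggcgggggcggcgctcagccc
Actg1: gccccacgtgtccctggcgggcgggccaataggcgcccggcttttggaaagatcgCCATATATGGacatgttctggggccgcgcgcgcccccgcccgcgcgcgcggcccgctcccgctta
Each window holds 1 box.

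**Figure D4:**
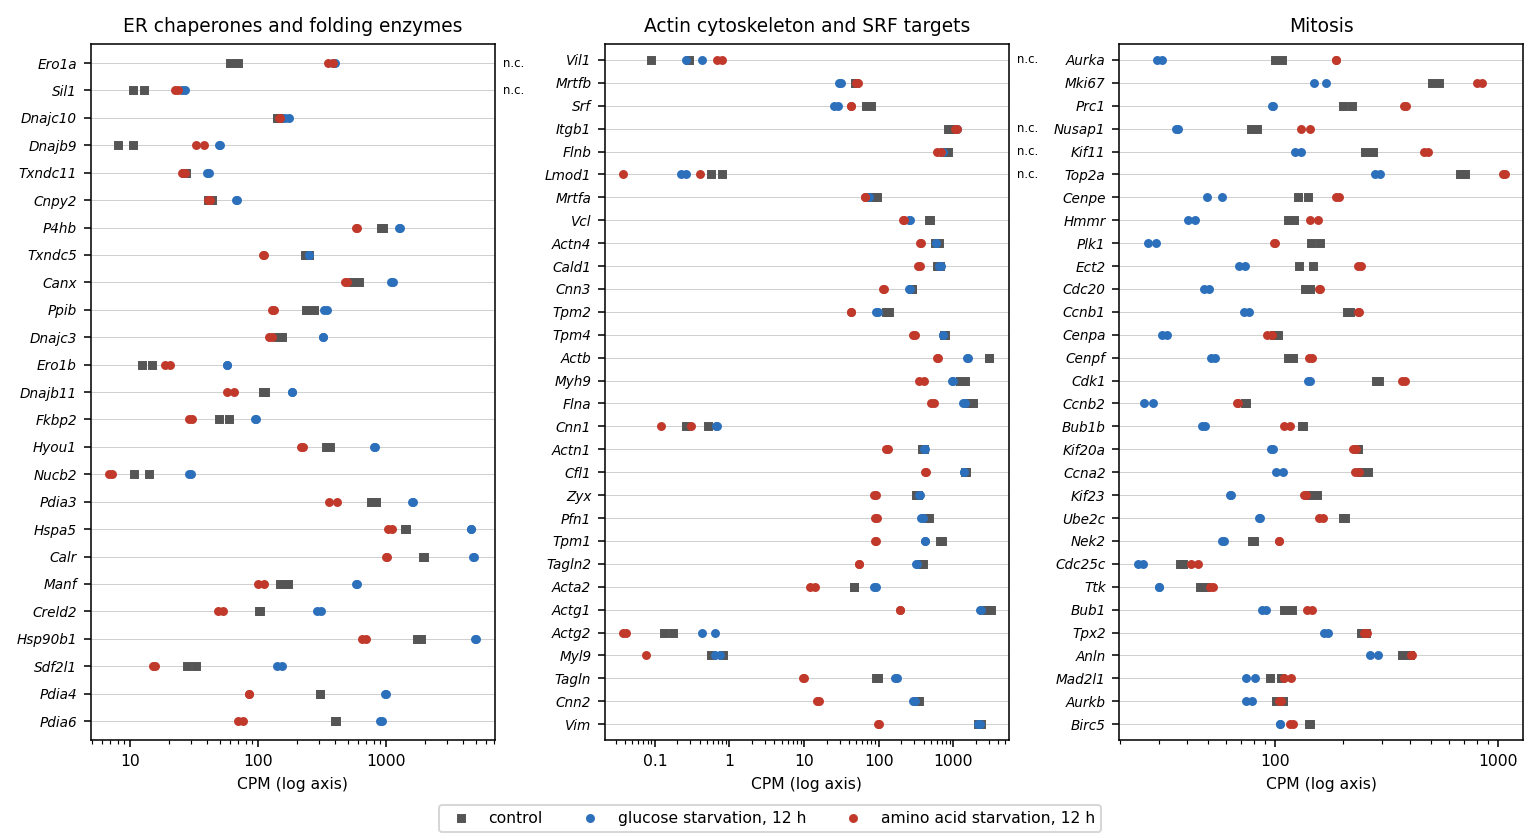
CPM on a log axis of ER chaperones (left), actin and SRF genes (middle) and mitosis genes (right), 2 points per group for control (grey), glucose starvation at 12 h (blue) and amino acid starvation at 12 h (red), sorted by log2 fold change between the starvations; n.c. marks genes not called and values of 0 are not drawn. For most ER chaperones blue lies right of the control and red at or left of it, for most actin genes blue lies near the control with red left of it, and for all 30 mitosis genes red lies right of blue.

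Sterol synthesis was lower in amino acid starvation across the pathway. SREBP2 drives these enzymes when cells lack cholesterol. Of 29 tested genes, none was higher and 28 were lower, with a median of -1.48. Srebf2, the gene of SREBP2, stood at 135 and 123 CPM against 314 and 321 CPM, with 328 and 293 CPM in the control (log2 fold change -1.30, edgeR adjusted p = 3.8e-17, SE 0.06). Nsdhl, an enzyme that removes methyl groups from sterol precursors, stood at 7.69 and 8.08 CPM against 66.3 and 66.7 CPM, with 31.8 and 31.6 CPM in the control (log2 fold change -3.08, edgeR adjusted p = 1.1e-22, SE 0.08). For both, the amino acid-starved libraries were the lowest of these 6. The enzymes Fdps and Cyp51 had -2.31 and -2.30, whereas Insig2, which holds SREBP in the ER, was not called (0.13, SE 0.09). The sterol element, searched as TCACNCCAC, was found in only 1 of the 21 cholesterol genes with a promoter window (4.76%). It was found in 1.44% of all genes with a window. Of 20 tested genes of fatty acid synthesis and desaturation, 3 were higher and 14 lower. Scd2, a desaturase, stood at 103 and 107 CPM against 941 and 924 CPM, with 1043 and 1095 CPM in the control (log2 fold change -3.15, SE 0.06), and the elongase Elovl6 had -2.03 (SE 0.08). Acacb, the acetyl-CoA carboxylase at mitochondria that limits fatty acid oxidation, went the other way, with 1.83 (SE 0.20). Fatty acid oxidation and PPAR targets were split, with 11 of 27 higher and 10 lower, among them Acads (-1.93) and Hadh (-1.76) lower and Pdk4 (1.13) higher. Exons of Fdps, Cyp51 and Scd2 overlap other annotated genes.

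Txnip, an alpha-arrestin that restrains glucose uptake and a direct target of MondoA, had one of the largest differences, at a mean level below that of the ranking above. It stood at 47.1 and 50.3 CPM in amino acid starvation, 1.56 and 1.86 CPM in glucose starvation and 9.59 and 8.28 CPM in the control (log2 fold change 4.85, edgeR adjusted p = 3.7e-21, SE 0.15). Amino acid starvation lay above the control and glucose starvation below it, 28.8-fold apart, and the exons of Txnip overlap those of Gm15441. At 3 h it stood at 15.5 and 13.1 CPM in amino acid starvation and 0.542 and 0.173 CPM in glucose starvation. Arrdc4, its closest relative among MondoA targets, was low in all libraries but also higher, with 2.16 and 1.72 CPM against 0.854 and 1.01 CPM (1.06, SE 0.32). That call was lost without amino acid-starved replicate 1 (0.86), without glucose-starved replicate 1 (0.94) and with transcripts summed (0.65). Of 11 tested genes of that list, 5 were higher and 6 lower, the latter including Arrdc3 (-1.70) and Khk (-1.28). The carbohydrate response element, a pair of sequences of the form CACGNG set 5 bases apart, was found in the window of Txnip and in 0.0555% of all genes with a window. Txnip is the only gene of that list with a match, and the stretch is shown with the element in capitals, from RefSeq on GRCm38.p6 (chr3:96557820-96557939, plus strand).
Txnip: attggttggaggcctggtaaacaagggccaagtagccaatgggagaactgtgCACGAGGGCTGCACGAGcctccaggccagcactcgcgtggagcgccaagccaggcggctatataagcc

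Glycolytic genes were lower in amino acid starvation, 24 of 30 tested genes against 3 higher, with a median of -0.67. Pfkl, a subunit of the committing enzyme phosphofructokinase, stood at 99.3 and 86.6 CPM against 291 and 295 CPM, with 205 and 170.1 CPM in the control (log2 fold change -1.66, SE 0.07). Aldoa, Tpi1, Eno1 and Ldha had -1.51, -1.48, -1.23 and -1.04. The glucose transporter genes went opposite ways, with Slc2a1 at -1.32 and Slc2a3 at 2.19, the highest of the list. Pdk1, which blocks the entry of pyruvate into mitochondria, had -2.45 (SE 0.10), whereas its relative Pdk2 was higher, with 1.01 (SE 0.17). Of 11 genes of the pentose phosphate pathway and gluconeogenesis, 9 were lower, led by G6pdx (-1.50), which makes the first NADPH of that pathway, and pyruvate carboxylase Pcx was higher (1.09). Hypoxia-inducible genes, which share several glycolytic members, were higher in 4 and lower in 15 of 25. Ndrg1 stood at 139 and 138 CPM against 514 and 534 CPM, with 23.6 and 22.8 CPM in the control (log2 fold change -1.92, SE 0.05). Vegfa, an angiogenic factor that ATF4 also drives, was high in both starvations, at 210.3 and 220.1 CPM against 271 and 266 CPM over 34.7 and 35.1 CPM, with a difference of -0.32 (SE 0.05) that was no longer called with library totals (-0.08). Exons of Aldoa, Tpi1, Slc2a1 and Ndrg1 overlap other annotated genes.

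Cell cycle genes were higher in amino acid starvation. All 30 tested mitosis genes were called higher, with a median of 1.37 (1.35 after the length and GC correction), against 32.5% of all genes. Aurka, a kinase of the spindle poles, stood at 187 and 188 CPM in amino acid starvation, 29.3 and 30.9 CPM in glucose starvation and 99.95 and 107 CPM in the control (log2 fold change 2.64, edgeR adjusted p = 8.5e-24, SE 0.06). Mki67, the proliferation antigen Ki-67, stood at 846 and 799 CPM against 169 and 149 CPM, with 504 and 545 CPM in the control. Top2a, the topoisomerase that untangles chromosomes, stood at 1052 and 1070.3 CPM against 295 and 279 CPM, with 670.4 and 713 CPM in the control. In all 3 genes the amino acid-starved libraries were above the control and the glucose-starved libraries below it. Over the list, 17 members were called higher and 4 lower than the control in amino acid starvation, and 0 higher and 30 lower in glucose starvation. Over all 17696 tested genes these counts were 6169 and 5670, and 5387 and 4952. Between the starvations, the smallest difference in the list was that of Birc5, survivin, at 0.17 (SE 0.06).

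The CHR element, TTTGAA, is bound by the DREAM and MuvB complexes that time cell cycle genes. It was found in 18 of 25 mitosis genes with a window (72.0%) and in 20.2% of all genes with a window. Members with a match had a median log2 fold change of 1.62 and the 7 without one 0.84. This element was chosen after seeing the data, and a match does not show binding. The windows of Cdk1, the mitotic kinase (chr10:69352913-69353032, minus strand), and Cdc20, an activator of the anaphase-promoting complex (chr4:118437344-118437463, minus strand), end at the base before the start and are shown from RefSeq on GRCm38.p6.
Cdk1: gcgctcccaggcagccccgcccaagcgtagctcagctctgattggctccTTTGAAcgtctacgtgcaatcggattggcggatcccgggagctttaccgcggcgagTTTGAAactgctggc
Cdc20: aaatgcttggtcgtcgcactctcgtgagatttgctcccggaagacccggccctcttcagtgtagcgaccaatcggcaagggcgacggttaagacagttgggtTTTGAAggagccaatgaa
Cdk1 had a log2 fold change of 1.41 (SE 0.05) and Cdc20 one of 1.68 (SE 0.06), and in each a copy lies close to the start. Exons of Cdc20 overlap those of Elovl1.

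In DNA replication and the G1/S transition, 25 of 32 genes were higher and 3 lower, with a median of 0.68. E2f2, a factor that drives S-phase genes, stood at 42.2 and 42.8 CPM against 8.23 and 6.32 CPM, with 13.3 and 12.8 CPM in the control (log2 fold change 2.53, SE 0.10), and the clamp gene Pcna at 729 and 779 CPM against 316 and 320.1 CPM, with 323 and 331 CPM in the control (log2 fold change 1.24, SE 0.06). Rrm2, Pola1 and Cdc45 had 1.34, 1.36 and 1.30, whereas the helicase gene Mcm2 was not called (-0.03, SE 0.06) and the polymerase gene Pold1 was lower (-1.04, SE 0.07). Of 15 cyclins and CDK inhibitors, which control entry into the cycle, 7 were higher and 7 lower. Ccnd1, cyclin D1, stood at 10.3 and 10.8 CPM against 77.0 and 74.1 CPM, with 254 and 246 CPM in the control (log2 fold change -2.84, edgeR adjusted p = 6.3e-24, SE 0.07), so it was below the control in both starvations and lowest in amino acid starvation. Its partner kinase gene Cdk6 was also lower (-1.23, SE 0.07), while the pocket protein genes Rbl1 and Rb1 were higher (1.59, SE 0.07 and 1.51 (SE 0.08)). Cdkn1a, or p21, had 0.27 (SE 0.05) and stood above the control in both starvations, at 119.8 and 124 CPM against 102 and 99.9 CPM over 24.6 and 23.9 CPM. Exons of Cdc45, Ccnd1, Cdk6, Rb1 and Cdkn1a overlap other annotated genes.

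Immediate early genes, which growth factors and stress induce within minutes, were mostly higher in amino acid starvation, 19 of 31 against 8 lower. Egr1 stood at 43.1 and 47.7 CPM in amino acid starvation, 3.42 and 2.66 CPM in glucose starvation and 82.1 and 82.6 CPM in the control (log2 fold change 3.88, edgeR adjusted p = 8.6e-25, SE 0.09). Both starvations were below the control at 12 h, although at 3 h of amino acid starvation Egr1 stood at 1361 and 1342 CPM. Fos, at 7.04 and 8.19 CPM against 0.817 and 1.06 CPM, and Jun, at 208 and 204 CPM against 86.9 and 93.1 CPM, encode AP-1 subunits and were both higher (log2 fold changes 3.04 and 1.20). Maff, a small MAF factor, had 2.40 (SE 0.06). Lower were the factors Klf2 (-1.64, SE 0.12) and Klf4 (-1.33, SE 0.07), and Myc was not called (-0.08, SE 0.06).

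Secreted signals and interferon targets were mixed. Of 28 tested genes of EGF receptor ligands, cytokines and chemokines, 8 were higher and 13 lower. The chemokine Cxcl12 stood at 10.3 and 10.6 CPM against 48.8 and 49.3 CPM, with 95.4 and 91.6 CPM in the control (log2 fold change -2.23, SE 0.07), the cyclooxygenase gene Ptgs2 had -1.54 (SE 0.06), and the noncanonical NF-kB subunit gene Nfkb2 0.96 (SE 0.06), with exons that overlap those of Psd. Of 24 interferon-stimulated genes 10 were higher and 2 lower, among them the RNA sensors Ifih1 (2.32, SE 0.16) and Ddx58 (1.38, SE 0.10) higher and the tetherin gene Bst2 lower (-1.54, SE 0.10). None of the 24 was called above the control in either starvation, and 15 were below it in amino acid starvation and 16 in glucose starvation. Over all 17696 tested genes, 6169 were above and 5670 below it in amino acid starvation, and 5387 and 4952 in glucose starvation.

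Core genes of autophagy differed little in their median, with members called in both directions. Of 42 core genes, which form, elongate and close the autophagosome, 17 were higher, 10 lower and 15 not called. The shares were 40.5% higher and 23.8% lower, against 32.5% and 31.6% of all genes, of which 64.1% were called in either direction. The list's median was 0.06, near that of all genes. Ulk1 and Ulk2, the kinases that start autophagosomes, stood at 102 and 90.4 against 50.2 and 49.8 CPM and at 37.6 and 36.7 against 17.2 and 14.7 CPM (log2 fold changes 0.94 and 1.21, SE 0.07 and 0.09), with controls of 49.2 and 48.7 and 25.9 and 25.9 CPM. Gabarapl2, an ATG8 protein that coats the membrane, stood at 95.8 and 94.8 CPM against 41.3 and 47.7 CPM, with 51.0 and 52.2 CPM in the control (log2 fold change 1.10, SE 0.06). In these 3 genes the amino acid-starved libraries were the highest of the 6, and the glucose-starved libraries lay near the control for Ulk1 and below it for Ulk2 and Gabarapl2. Map1lc3b, the ATG8 protein LC3B, was above the control in both and higher in amino acid starvation, at 205 and 189.7 CPM against 136 and 134 CPM over 106 and 107 CPM (0.55, SE 0.06), with exons that overlap those of Zcchc14. The lower genes were led by the ER scramblase gene Tmem41b (-0.98, SE 0.07), the lipid binder Wipi1 (-0.79, SE 0.09) and Atg3, which conjugates ATG8 to lipid (-0.63, SE 0.07). Atg5, Atg7, Atg13 and Atg16l1 were not called. Against the control, 29 core genes were called higher in amino acid starvation and 27 in glucose starvation. Over all 17696 tested genes these counts were 6169 and 5387.

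Of 25 tested autophagy receptors, which tie cargo to ATG8, 11 were higher and 11 lower. Retreg3, a receptor on the ER, stood at 119.7 and 112 CPM against 29.0 and 30.2 CPM (log2 fold change 1.97, SE 0.06), while its relative Retreg1 was lower, at 30.6 and 33.6 CPM against 67.0 and 62.1 CPM (log2 fold change -1.01, SE 0.08). Bnip3, a mitophagy receptor, and Phb2, of the inner mitochondrial membrane, were lower with -1.61 (SE 0.10) and -1.44 (SE 0.06). Sqstm1, the receptor p62, was high in both starvations, at 773 and 762 CPM against 843 and 852 CPM over 256 and 238 CPM, and its difference of -0.14 (SE 0.05) turned to 0.10 with library totals and was not called without either glucose-starved library (-0.15 and -0.14). Exons of Bnip3, Phb2 and Sqstm1 overlap other annotated genes. Of 50 lysosomal genes 20 were higher and 24 lower. At least 2-fold, 4 were higher and 5 lower, and the highest was Cln3 (3.07). The proton pump subunits Atp6v1c1 (0.78, SE 0.06) and Atp6v0c (0.71, SE 0.06) were among the higher. Among the lower were the hydrolases Asah1 (-1.32, SE 0.06) and Gusb (-1.38, SE 0.07) and the cholesterol carrier Npc2 (-1.04, SE 0.06). These examples do not stand for all pump subunits or hydrolases. The CLEAR element, GTCACGTG, bound by TFEB, was in 26.3% of the 38 lysosomal genes with a window and in 2.55% of all, and members with and without it had medians of 0.12 and -0.12. In the list of amino acid sensing, mTORC1 and AMPK, 20 of 46 were higher and 16 lower. Depdc5, of the GATOR1 brake on mTORC1, had 1.49 (SE 0.09), and Eif4ebp2 1.02 (SE 0.05), whereas Eif4ebp1, an ATF4 target, had -1.22 (SE 0.07).

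The machinery of protein synthesis and breakdown was lower in amino acid starvation. All 41 tested cytosolic ribosomal protein genes were called lower, with a median of -0.64, or -0.52 after the correction for length and GC content. The narrow range ran from Rpl22 (-1.20) to Rpl18 (-0.27). Against the control, 25 were lower and 2 higher in amino acid starvation, and 0 lower and 40 higher in glucose starvation. Over all 17696 tested genes these counts were 5670 and 6169, and 4952 and 5387. Translation factors were lower in 25 of 33 and higher in 6. Eef1a1, which brings charged tRNA to the ribosome, stood at 5025 and 4882 CPM against 13939 and 14199 CPM, with 10506 and 9767 CPM in the control (log2 fold change -1.51, SE 0.05), and its exons overlap a provisional gene. The eIF3 subunit genes Eif3e and Eif3c had -1.55 and -1.11, and Eif4g3 was higher (2.10, SE 0.08). Of 35 genes of ribosome biogenesis 27 were lower, among them the nucleolar proteins Npm1 (-1.18, SE 0.06) and Ncl (-1.11, SE 0.05), and 4 higher. Of 35 proteasome genes 26 were lower and 2 higher, none by 2-fold.

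Most lists of mitochondrial and stress genes had more members lower than higher in amino acid starvation. Nuclear genes of the respiratory chain were lower in 28 of 41 and higher in 4, with a median of -0.48, led by Ndufb10 (-1.43, SE 0.08). Of the 13 genes of the mitochondrial genome 4 were higher and 6 lower, from mt-Co1 (-0.94, SE 0.06) to mt-Cytb (0.47, SE 0.06), and reads on that genome were 4.37 and 4.94% of the total in amino acid starvation and 5.20 and 5.14% in glucose starvation. NRF2 targets and genes of glutathione and thioredoxin, which protect against oxidants, were lower in 30 of 36 and higher in 2. Nqo1 had -2.36 (SE 0.18), Prdx6 -1.43 (SE 0.06) and Hmox1 -1.11 (SE 0.05). Of 27 genes in the list of p53 targets and GADD45 genes, which includes Trp53 itself, 6 were higher and 17 lower. The highest was Gadd45g (1.77, SE 0.09) and the lowest Perp (-2.07, SE 0.08). Genes of FOXO and insulin receptor feedback were higher in 13 of 25 and lower in 9. The insulin receptor gene Insr had 1.03 (SE 0.08) and catalase, Cat, -1.04 (SE 0.07). Circadian clock genes were higher in 7 and lower in 4 of 19, with Ciart at -1.35 (SE 0.09) and Arntl, or BMAL1, at 0.73 (SE 0.07). Neat1, the RNA scaffold of nuclear paraspeckles, stood at 266 and 245 CPM against 1799 and 1775 CPM, with 297 and 309.8 CPM in the control (log2 fold change -2.81, SE 0.06), and its exons overlap other annotated genes. Of the 15 tested noncoding RNAs 10 were lower, among them the snoRNA hosts Snhg5 (-1.66, SE 0.06) and Gas5 (-0.92, SE 0.06), and 2 higher.

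The difference between the starvations was not the same at earlier times. From 3 to 12 h the amino acid minus glucose difference changed for 8394 genes (47.4%), 3842 upwards and 4552 downwards, and from 6 to 12 h for 6987 genes (39.5%), by edgeR's test of the interaction. For Vim, the 3 h libraries stood at 2445 and 2453 CPM in amino acid starvation and 2577 and 2785 CPM in glucose starvation, and the 6 h libraries at 886 and 900.2 CPM against 2434 and 2474 CPM. The starvations were thus close at 3 h and apart from 6 h, and the difference changed by -4.35, SE 0.08, edgeR adjusted p = 2.9e-25. For Hspa8 the 3 h values were 2928 and 2964 CPM against 4430.2 and 4611 CPM and the difference changed by -3.08, SE 0.07, edgeR adjusted p = 2.2e-23. For Hspa5 they were 1634 and 1706 CPM against 3362 and 3426 CPM, so the starvations were already apart, and the difference changed by -1.08, SE 0.07, edgeR adjusted p = 5.3e-13. For Aurka the 3 h values were 88.0 and 87.7 CPM against 41.3 and 46.9 CPM and the change 1.65 (SE 0.09).

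By list, the change from 3 to 12 h was downwards for 41 of 42 ATF4 targets and upwards for none, with a median of -0.99. From 6 to 12 h it was downwards for 38, with a median of -0.95. Over all 17696 tested genes, 3842 changed upwards and 4552 downwards from 3 h, and 3159 upwards and 3828 downwards from 6 h. Asns stood at 444 and 459 CPM against 278 and 292 CPM at 3 h and 786 and 795 against 385 and 399 CPM at 6 h, before the 643 and 664 CPM against 539 and 545 CPM of 12 h. Its difference was thus widest at 6 h and narrowed by 12 h, with a change of -0.74 (SE 0.07) from 6 to 12 h. Ddit3 stood at 92.8 and 105 CPM against 124 and 125 CPM at 6 h, and its difference changed by -1.34 (SE 0.10) from 6 to 12 h. Mitosis genes changed upwards in 28 of 30 from 3 h and 22 of 30 from 6 h, and none downwards. Ribosomal protein genes changed downwards in 37 of 41 over either interval. Cholesterol genes changed downwards in 23 of 29 from 3 h, but from 6 h upwards in 17 and downwards in 3, so the difference of most called genes was wider at 6 h than at 12 h, with medians of change of -0.74 and 0.54. Actin and SRF genes changed downwards in 22 of 30 from 3 h and 18 from 6 h.

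**Figure D5:**
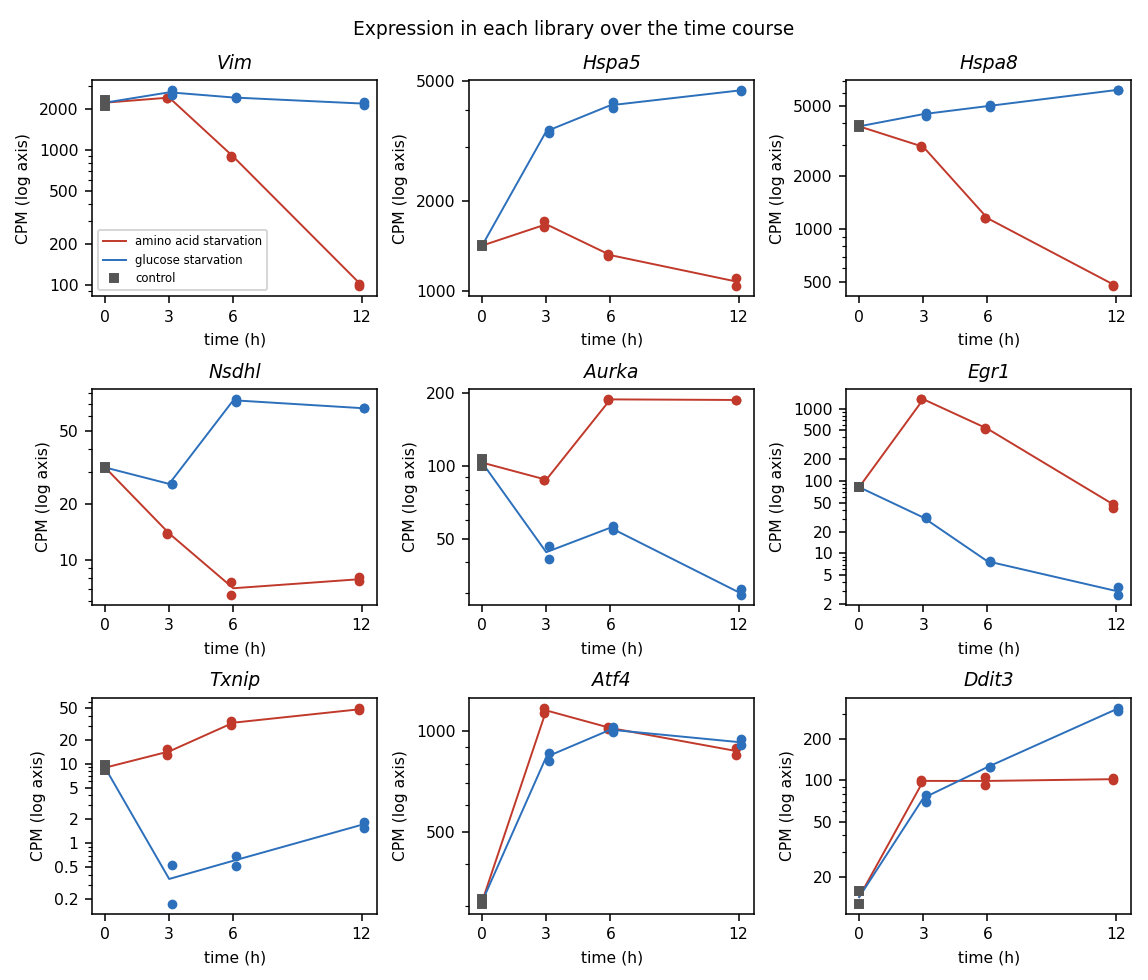
CPM on a log axis of 9 genes in each library at 0 h (control, grey), 3, 6 and 12 h of amino acid starvation (red) or glucose starvation (blue), with lines through the group means. Vim is alike at 3 h and apart from 6 h, Hspa5, Egr1 and Txnip are already apart at 3 h, Atf4 lies close in both starvations at 6 and 12 h, and Ddit3 is widest apart at 12 h.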

How the data were processed

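Total RNA of 14 libraries of mouse embryonic fibroblasts was sequenced. The deposited table holds raw counts of reads per transcript and, per the file header, transcript length. The submitters' processing notes name STAR, bedtools and build GRCm39; versions, annotation release and strand setting are not given in the sources used here. For each gene symbol the transcript with the highest sum over 14 libraries was used (13432 genes had several). The count table was filtered with filterByExpr, scaled by TMM and tested with edgeR 4.0.16 (R 4.3.3), a robust quasi-likelihood fit of 7 group means over 14 libraries with no block and Benjamini-Hochberg adjustment at 0.05. SE is the absolute log2 fold change divided by the root of F. The biological coefficient of variation was 5.78%. DESeq2 1.42.0, scalings, filters, a block and left-out libraries were alternatives. The restriction to genes without overlapping exons and the length and GC correction were chosen after seeing the data, as were the heat shock, CArG and CHR elements. Overlaps came from GENCODE vM21, on an older build, by gene name. Named genes are the 12 highest and 12 lowest at a mean log2 CPM of at least 3 with libraries not overlapping and no provisional symbol (Gm, Rik and clone names), the most abundant changed genes, up to 5 members of each list by p, a fixed panel, and members that show a list's other direction. Members and lists were chosen with earlier results of these data known. Scripts were tested on simulated data.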

Additional observations from a re-analysis of the deposited data

Results flagged for a closer look

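The amino acid minus glucose difference changed between an earlier time and 12 h for the genes below, by edgeR's interaction term. They are the 5 ranked genes with the largest change in each direction for each interval, so their size was what chose them. The ranking took genes whose mean log2 CPM reached 3 and whose 12 h libraries did not overlap between the starvations. Provisional symbols were left out. Genes whose difference had closed by 12 h were not ranked, so any larger change among them is not listed.

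From 3 to 12 h the difference changed upwards by 2.91 on the log2 scale for H1f10 and by 2.71 for H1f0, which encode linker histones, and by 2.72 for Gas2l3, a cytoskeletal gene of cytokinesis. H1f0 stood at 99.3 and 100.2 CPM in amino acid starvation against 128 and 133 CPM in glucose starvation at 3 h, and at 307 and 345 CPM against 62.8 and 67.3 CPM at 12 h, so the order of the starvations reversed. It also reversed for Gas2l3, from 16.04 and 19.04 CPM against 32.2 and 26.9 CPM to 73.7 and 75.9 CPM against 19.9 and 18.3 CPM. Arhgef39, a guanine nucleotide exchange factor, and the DNA helicase gene Pif1 had changes of 2.80 and 2.71. Downwards, the changes were -4.35 for Vim, -4.29 for the chemokine Cxcl1, -3.86 for Tagln, -3.75 for the adenylate kinase gene Ak5 and -3.71 for Gask1b. Cxcl1 stood at 77.5 and 77.4 CPM against 23.6 and 26.3 CPM at 3 h and at 1.10 and 0.642 CPM against 5.65 and 5.21 CPM at 12 h. Gask1b was lower in amino acid starvation at both times, with 10.4 and 11.2 CPM against 36.1 and 29.1 CPM at 3 h.

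From 6 to 12 h the upward changes of this ranking were 2.41 for Sned1, 2.38 for Irgm1, an interferon-induced GTPase, and 2.31 for H1f10. The transcription factor Atoh8 and B4gat1, a glycosyltransferase, had 2.10 each. Irgm1 stood at 7.46 and 9.25 CPM against 22.9 and 24.9 CPM at 6 h and at 10.7 and 12.1 CPM against 6.09 and 6.37 CPM at 12 h, with the order reversed. Downwards, the changes were -3.02 for Vim, -2.85 for Dhrs9, a retinol dehydrogenase, -2.80 for Tagln, -2.70 for Ndrg1 and -2.56 for Atf3. Atf3 stood at 85.1 and 83.4 CPM against 40.4 and 43.8 CPM at 6 h, and Ndrg1 at 402 and 389 CPM against 229 and 232 CPM. Both were thus higher in amino acid starvation at 6 h and higher in glucose starvation at 12 h. Exons of H1f0, Ak5, Sned1, B4gat1, Tagln and Ndrg1 overlap other annotated genes.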

How the results depend on the processing

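The number of genes that differed at 12 h stayed within 1.5 times 11341 for RLE scaling (11332), library totals (11679), DESeq2 (10975), no filter (11175), a stricter filter (10441), transcripts summed per gene (10961) and a fit of the 4 libraries alone (11655), and it ranged from 10082 to 10229 without 1 of the 4 libraries. With library totals 65.45% of the calls were higher in amino acid starvation. Among tested genes with no overlapping exon, the counts were 7398 for the 12 h comparison, 5468 and 4563 for the changes from 3 and 6 h, and 7624 and 6666 for amino acid and glucose starvation against the control, fewer because fewer genes were tested. With the replicate number as a block 11450 genes differed at 12 h, 8591 and 7245 changed from 3 and 6 h, and 11954 and 10472 differed from the control. Deviations of same-numbered libraries from their group means, over 9769 genes, correlated at 0.021 between the 12 h starvations and from -0.262 to 0.388 over all pairs of groups. Not every pair was above 0.1 and no label ties the numbers, so the libraries were not treated as paired. Of the named genes, Sqstm1 turned to 0.0951 with library totals. Medians of lists near 0 turned too: ATF4 targets (0.0216), bZIP factors and eIF2 control (0.1281) and the lysosome (0.1743) with library totals, the lysosome (0.0714) without overlapping genes, and the median log2 fold change of fatty acid oxidation and PPAR targets, which ran from -0.0602 (without glucose-starved replicate 1) to 0.0824 as each library was left out. The cause of these was not tested. With 2 libraries a group, precision rests on the spread shared by all 14.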

Other observations

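Among called genes that differed at least 2-fold, the 6 with the highest mean CPM over the 4 libraries that were higher in amino acid starvation, provisional symbols left out, were H3f3b, Slc38a2, Polr2a, Top2a, Atad2 and Rad21. H3f3b, which encodes the replication-independent histone H3.3, stood at 1563 and 1658 CPM against 484 and 491 CPM, with 588 and 642 CPM in the control (log2 fold change 1.72, edgeR adjusted p = 8.9e-21, SE 0.06). Polr2a, the largest subunit of RNA polymerase II, stood at 1226 and 1171 CPM against 594 and 566 CPM, with 415 and 431 CPM in the control (log2 fold change 1.05, edgeR adjusted p = 1.1e-13, SE 0.07). Rad21, a subunit of the cohesin ring that holds sister chromatids together, stood at 755 and 771 CPM against 319 and 311 CPM, with 442 and 459.5 CPM in the control (log2 fold change 1.28, edgeR adjusted p = 3.5e-18, SE 0.05). These genes were picked for a called difference of at least 2-fold, so the separation of their libraries follows from that choice. Atad2, a bromodomain protein, had 1.17 (SE 0.07), and Ppp1r10, a phosphatase subunit of nuclear complexes, 2.54 (SE 0.07). On the lower side the same rule named Eef1a1, Hspa8, Rps2, Calr, Hspa5 and Hsp90b1, with Rps2, a ribosomal protein gene, at -1.02 (SE 0.07).

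Some of the genes furthest apart belong to none of the lists. Irgq had 2.62 (SE 0.10), Mast1 3.21 (SE 0.13), Psd 2.62 (SE 0.08) and Glcci1 2.59 (SE 0.13), of which Mast1, Psd and Glcci1 share exon sequence with other annotated genes. Dap, a gene first tied to cell death and a substrate of mTORC1 that restrains autophagy, stood at 7.95 and 8.91 CPM against 99.4 and 106 CPM, with 124 and 127 CPM in the control (log2 fold change -3.60, edgeR adjusted p = 5.2e-25, SE 0.08), and its amino acid-starved libraries were the lowest of the 6.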
